A study of Mus musculus with 6 samples.

Results

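The lysosome is the acidic organelle in which cells break down proteins, glycans and lipids taken up from outside or delivered by autophagy. Its hydrolases work at low pH, which the vacuolar ATPase (V-ATPase) maintains: the cytosolic V1 sector hydrolyses ATP and the membrane-embedded V0 sector carries protons into the lumen. The transcription factors TFEB and TFE3 bind an E-box element in the promoters of many lysosomal genes, and in pancreatic acinar cells the lysosomal proteases cathepsin B and cathepsin L also act on trypsinogen.

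The genes described are 34 lysosomal genes chosen by symbol together with every V-ATPase gene whose symbol begins with Atp6v or Atp6ap and a digit, pseudogenes left out. They numbered 53 of the 20596 genes with a symbol in the deposited table. By role they were 7 proteases, 15 glycosidases, sulfatases and lipase, 3 luminal cofactors and carriers, 7 membrane proteins, 10 subunits of V1, 7 of V0, 2 accessory V-ATPase subunits and 2 transcription factors. Bulk RNA sequencing was done on cells of the mouse line 266.6, a pancreatic acinar tumour line derived from a mouse in which an elastase promoter drove the SV40 early genes. The CAF_CM group (3 libraries) was exposed to medium conditioned by cancer-associated fibroblasts for up to 40 days, and the control group (3 libraries) is labelled only as control. Both groups were the same line, whose growth medium is given as high-glucose DMEM with serum.

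The libraries held between 18622370 and 21002226 reads. Values are normalized counts, the authors' read counts divided by 1 factor per library, and are given as mean ± SD with n = 3 per group or for libraries 1, 2 and 3 in that order. Log2 fold changes were computed from log2(value + 1) and come with unadjusted 95% intervals, and "rose" or "fell" is written of genes with an adjusted p under 0.05 (limma, Benjamini-Hochberg over 16169 genes). The biological coefficient of variation was 8.23% among CAF_CM and 2.20% among control libraries. Nothing in the labels says that replicates came from separate cultures, so the p-values reflect variation among the deposited libraries alone and that variation may be technical. The labels do not say how long the control cells were cultured or in what medium over that period, so the conditioned medium and time in culture cannot be told apart. In bulk RNA, less RNA per cell and fewer cells expressing a gene cannot be told apart either. Of 10 acinar markers all had values, led by Ctrb1 and Cela1, while Cel and Pnlip were below 31 normalized counts in every library.

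Lysosomal genes were lower in CAF_CM cells across most roles. Of the 53 genes, all of which passed the filter on low values, 31 fell, 3 rose and 19 did not pass the test. Over all genes tested, 16.1% fell and 18.3% rose. The median log2 fold change of the 53 genes was -0.26, against 0.00459 over all genes tested, and 44 of the 53 were below 0. In 37 of them every CAF_CM library lay below every control library, which held for 22.9% of all genes tested, and in 5 every CAF_CM library lay above, which held for 24.8%. The changes were small: the largest fall was 1.63-fold and the largest rise 1.31-fold. The median difference of the 53 genes from the control mean was -0.21, -0.22 and -0.29 log2 units in CAF_CM libraries 1, 2 and 3. Leaving out 1 library at a time gave 26 to 35 falls and 1 to 3 rises, with 1 rise without control replicate 1. With library totals as scaling, which made 2231 genes higher and 3179 lower against 2953 and 2602, 38 members fell and 2 rose.

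**Figure D1:**
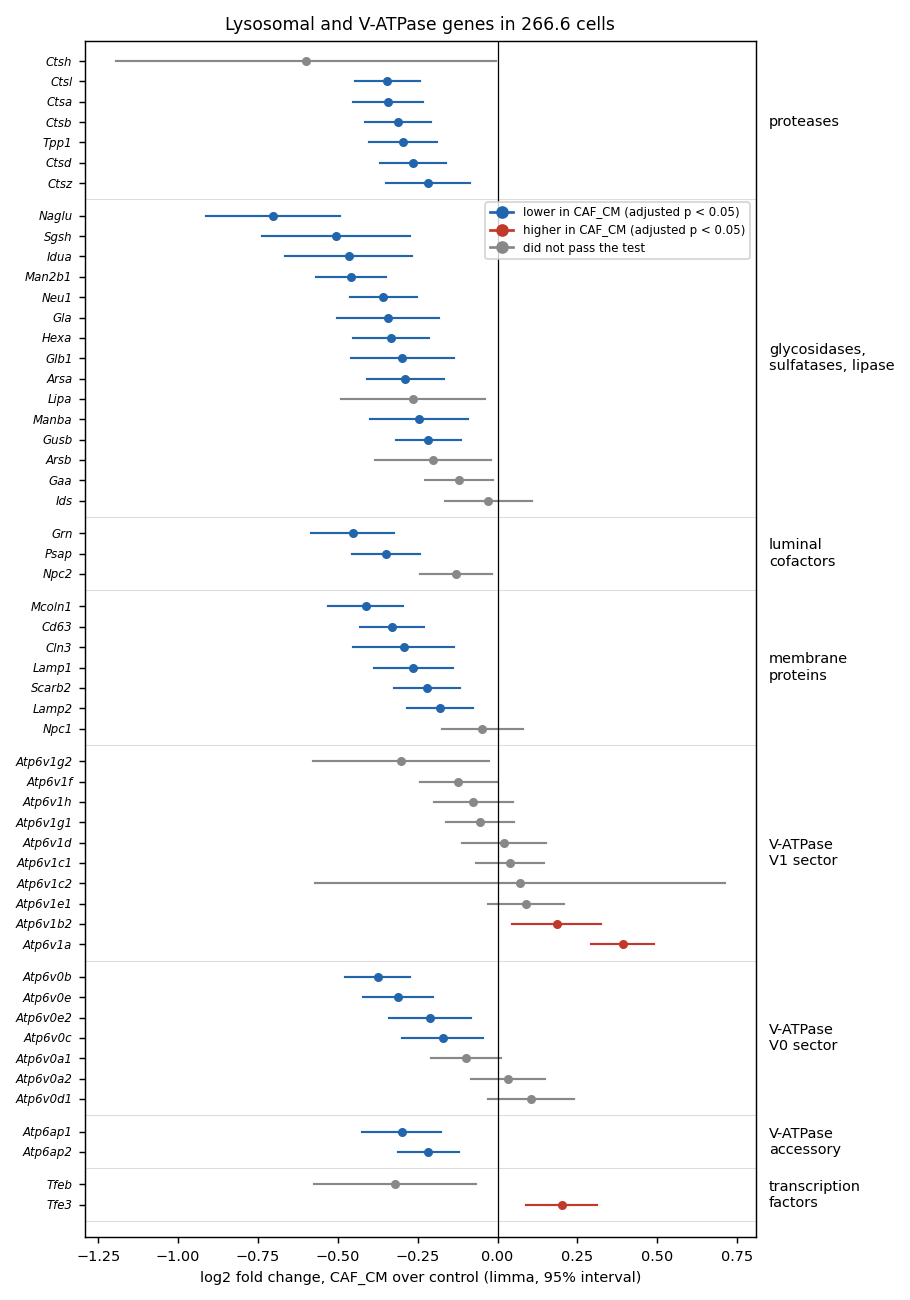
Log2 fold change (CAF_CM over control) with its 95% interval from limma for each of the 53 genes, grouped by role, with blue for genes that fell, red for genes that rose and grey for genes that did not pass the test. Hydrolases, luminal cofactors and membrane proteins lie left of 0, whereas the V1 sector is spread around 0 with Atp6v1a at 0.39.

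Promoters of 45 of the 53 genes were found in the RefSeq table of mouse (GRCm38.p6), each as 250 bases before and 50 bases after the start of transcription. They were searched on both strands for TCACGTG, the core of the element bound by TFEB and TFE3 (read as CACGTGA on the other strand). This run contains the general E-box CACGTG and is itself contained in the palindrome TCACGTGA. TCACGTG was found in 15 of the 45 genes (33.3%), against 4.29% of all 27025 genes in the table and 3.77% of all 32851 promoters. Among the genes tested that have a promoter there, the share was 6.88%. The palindrome was found in 8 of the 45 genes (17.8%, against 1.12% of all genes) and CACGTG in 16 (35.6%, against 8.09%). A match describes the sequence only and says nothing of binding in these cells. In the promoters shown here the matches are in capitals. Mcoln1, Ctsa, Cln3, Atp6v0b and Atp6v0e were lower in CAF_CM libraries, and Atp6v1a was higher. Of all 15 genes with TCACGTG, 12 fell and only Atp6v1a rose, so the promoters shown do not stand for the proportions among them. The match of Atp6v0e and 1 of 2 in Ctsa lie just after the start of transcription.
Mcoln1 (chr8:3500269-3500568, plus strand): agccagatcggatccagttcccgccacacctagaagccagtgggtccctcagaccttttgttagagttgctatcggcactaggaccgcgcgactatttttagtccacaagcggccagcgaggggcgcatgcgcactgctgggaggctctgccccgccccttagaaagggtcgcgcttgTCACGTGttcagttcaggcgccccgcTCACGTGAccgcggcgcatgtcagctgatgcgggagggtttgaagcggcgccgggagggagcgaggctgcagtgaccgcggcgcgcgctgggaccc
Ctsa (chr2:164833523-164833822, plus strand): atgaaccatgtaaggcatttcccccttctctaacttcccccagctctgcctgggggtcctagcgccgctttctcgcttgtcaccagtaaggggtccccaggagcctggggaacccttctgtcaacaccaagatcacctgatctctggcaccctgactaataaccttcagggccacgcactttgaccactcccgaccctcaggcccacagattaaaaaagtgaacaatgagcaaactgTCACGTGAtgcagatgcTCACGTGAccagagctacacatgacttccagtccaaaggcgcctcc
Cln3 (chr7:126583187-126583486, minus strand): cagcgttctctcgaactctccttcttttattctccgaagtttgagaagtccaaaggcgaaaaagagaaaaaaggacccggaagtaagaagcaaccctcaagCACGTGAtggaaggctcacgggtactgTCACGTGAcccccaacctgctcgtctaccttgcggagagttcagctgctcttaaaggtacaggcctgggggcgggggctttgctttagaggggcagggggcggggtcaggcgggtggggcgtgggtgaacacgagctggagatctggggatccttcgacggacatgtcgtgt
Atp6v0b (chr4:117887280-117887579, minus strand): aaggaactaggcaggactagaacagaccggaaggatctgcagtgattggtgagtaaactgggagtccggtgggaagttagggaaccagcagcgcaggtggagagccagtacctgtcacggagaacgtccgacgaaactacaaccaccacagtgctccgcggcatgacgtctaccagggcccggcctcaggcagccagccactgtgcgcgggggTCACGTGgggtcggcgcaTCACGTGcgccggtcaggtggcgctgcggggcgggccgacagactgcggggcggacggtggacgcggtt
Atp6v0e (chr17:26676146-26676445, plus strand): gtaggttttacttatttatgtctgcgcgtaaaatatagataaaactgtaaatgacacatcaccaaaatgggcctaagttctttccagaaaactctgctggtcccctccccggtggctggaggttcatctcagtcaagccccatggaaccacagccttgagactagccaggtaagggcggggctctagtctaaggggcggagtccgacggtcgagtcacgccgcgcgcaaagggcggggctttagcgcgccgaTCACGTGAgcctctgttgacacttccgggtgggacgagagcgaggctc
Atp6v1a (chr16:44139210-44139509, minus strand): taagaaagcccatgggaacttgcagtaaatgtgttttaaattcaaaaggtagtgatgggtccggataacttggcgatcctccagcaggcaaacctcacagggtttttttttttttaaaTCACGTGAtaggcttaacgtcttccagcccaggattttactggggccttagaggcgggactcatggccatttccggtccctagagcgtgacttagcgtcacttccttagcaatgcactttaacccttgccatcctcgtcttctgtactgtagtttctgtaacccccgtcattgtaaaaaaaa

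Of 7 proteases, 6 fell and none rose. Ctsl, cathepsin L, an endopeptidase that degrades trypsinogen, had 5724, 5337 and 5428 normalized counts in the CAF_CM libraries, against 6938, 6931 and 7061 in the control libraries. The groups were far apart, a 1.27-fold fall (log2 fold change -0.34, SE 0.0461, adjusted p = 0.000286). Ctsa, a carboxypeptidase that also protects the sialidase and beta-galactosidase in a complex, had 5409.8, 4880.1 and 5082 normalized counts in the CAF_CM libraries, against 6602, 6482 and 6397 in the control libraries, again with no overlap (log2 fold change -0.34, SE 0.0499, adjusted p = 0.000457). Ctsb, cathepsin B, which can activate trypsinogen, had 7076, 6782 and 6492 normalized counts in the CAF_CM libraries, against 8378, 8371 and 8487 in the control libraries. It fell 1.24-fold (log2 fold change -0.31, SE 0.0474, adjusted p = 0.000588), with the 3 control libraries within a narrow range. Exons of Ctsb overlap those of Fdft1 on the opposite strand. The labels do not say that the libraries kept strand, and Fdft1 was higher in CAF_CM cells (2712 ± 178 normalized counts in CAF_CM and 2345 ± 77.6 in control libraries). Tpp1, tripeptidyl peptidase 1, had 3687, 3378 and 3557 normalized counts in the CAF_CM libraries, against 4259, 4395 and 4392 in the control libraries (log2 fold change -0.30, SE 0.0485, adjusted p = 0.000894). Ctsd, the aspartic protease cathepsin D, had 3300.0, 3199 and 3079 normalized counts in the CAF_CM libraries, against 3905, 3748 and 3840.3 in the control libraries (log2 fold change -0.26, SE 0.0471, adjusted p = 0.00153). All CAF_CM libraries of both genes were below all control libraries. Ctsz, a carboxypeptidase, fell least of the 6 (3903 ± 335 normalized counts in CAF_CM and 4528 ± 34.8 in control libraries, log2 fold change -0.22, adjusted p = 0.0166). Its call was lost without CAF_CM replicate 3 (adjusted p = 0.052) and without control replicate 1, 2 or 3 (0.0689, 0.0617 and 0.0577). Ctsh, an aminopeptidase, had few counts (19.7 ± 6.72 normalized counts in CAF_CM and 29.8 ± 6.58 in control libraries, log2 fold change -0.60, adjusted p = 0.11), and passed the test only without CAF_CM replicate 2 (adjusted p = 0.0237).

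Among the enzymes that degrade glycans, sulfated polysaccharides and lipids, 11 of 15 fell and none rose, and all 15 had a log2 fold change below 0. By log2 fold change the 3 largest falls of the 15 were those of Naglu, Sgsh and Idua, which act on heparan sulfate. These 3 genes also had the lowest normalized counts of the 15. The 95% intervals of Sgsh (-0.74 to -0.27) and Idua (-0.66 to -0.27) included the log2 fold change of Man2b1 (-0.46). Naglu, which removes N-acetylglucosamine from heparan sulfate, had 146, 151 and 133 normalized counts in the CAF_CM libraries, against 242, 223 and 236 in the control libraries. That was a 1.63-fold fall (log2 fold change -0.70, SE 0.10, adjusted p = 0.000323), the largest of the 53 genes. Sgsh, a sulfatase of the same chain, had 140.0, 152 and 158 normalized counts in the CAF_CM libraries, against 199, 202 and 239.7 in the control libraries. It fell 1.42-fold (log2 fold change -0.51, SE 0.11, adjusted p = 0.00383). Idua, the iduronidase that acts on heparan and dermatan sulfate, had 199, 187 and 211 normalized counts in the CAF_CM libraries, against 271, 295 and 259.6 in the control libraries, a 1.38-fold fall (log2 fold change -0.47, SE 0.0908, adjusted p = 0.00251). In all 3 genes the groups did not overlap. Gusb, the beta-glucuronidase, fell by less (2013 ± 37.8 normalized counts in CAF_CM and 2340.2 ± 44.0 in control libraries, log2 fold change -0.22, adjusted p = 0.00422). Ids, the iduronate sulfatase that works before Idua on the same chain, had 648, 633 and 695 normalized counts in the CAF_CM libraries, against 650.1, 681 and 682 in the control libraries. Its groups overlapped, and the 95% interval of its log2 fold change was -0.17 to 0.11 (adjusted p = 0.757).

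Other members of this role act on N-glycans and sphingolipids. Man2b1, the alpha-mannosidase of N-glycans, had 1160.4, 1187 and 1137 normalized counts in the CAF_CM libraries, against 1633, 1567 and 1587 in the control libraries, with little spread inside either group and a 1.37-fold fall (log2 fold change -0.46, SE 0.0498, adjusted p = 9.46e-05). Of the enzymes that strip gangliosides and related lipids, the sialidase gene Neu1 (2697 ± 80.0 normalized counts in CAF_CM and 3454 ± 109.8 in control libraries), the alpha-galactosidase gene Gla (286 ± 4.21 normalized counts in CAF_CM and 363 ± 11.4 in control libraries), the hexosaminidase gene Hexa (1286 ± 57.2 normalized counts in CAF_CM and 1620.3 ± 55.3 in control libraries), the beta-galactosidase gene Glb1 (log2 fold change -0.30) and the arylsulfatase gene Arsa (-0.29) all fell. Adjusted p for these 5 genes was 0.00944 or less. Manba, the beta-mannosidase, fell (-0.25, adjusted p = 0.0191), a call lost without CAF_CM replicate 3 (0.0728) and without control replicate 1 or 2 (0.075 and 0.0953). Besides Ids, the genes that did not pass the test were the glycogen-degrading glucosidase gene Gaa (-0.12, adjusted p = 0.078), the sulfatase gene Arsb (-0.20, 0.0802) and the acid lipase gene Lipa. Lipa had 694, 941 and 685 normalized counts in the CAF_CM libraries, against 921, 928 and 906 in the control libraries. CAF_CM replicate 2 was at the control level and replicates 1 and 3 were below it (log2 fold change -0.26, SE 0.10, adjusted p = 0.0685). Without replicate 2 its log2 fold change was -0.41 (adjusted p = 0.000236), and Gaa and Arsb also passed the test without that library (Arsb, adjusted p = 0.0355). Arsb passed it without CAF_CM replicate 1 as well (0.0253).

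Psap encodes prosaposin, the precursor of the saposins that present sphingolipids to the hydrolases. It had the highest level of the 53 genes, also per kilobase of the longest annotated transcript (normalized counts per kilobase of 6741 in CAF_CM and 8583 in control libraries). Its values were 17566, 18636 and 17528 normalized counts in the CAF_CM libraries, against 22595, 22995 and 22823 in the control libraries, a 1.27-fold fall without overlap (log2 fold change -0.35, SE 0.0481, adjusted p = 0.00034). Grn, the progranulin gene, whose product is processed to granulins in the lysosome, had 2195, 2332 and 1987 normalized counts in the CAF_CM libraries, against 2969.5, 2974 and 2960.1 in the control libraries. The control libraries lay within a narrow range and all CAF_CM libraries were far below (log2 fold change -0.45, SE 0.0592, adjusted p = 0.000247). Npc2, the luminal carrier that hands cholesterol to the membrane protein encoded by Npc1, was lower in every CAF_CM library but did not pass the test (2263 ± 102 normalized counts in CAF_CM and 2477 ± 75.1 in control libraries, adjusted p = 0.0691), which it did without CAF_CM replicate 1 (0.00746).

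Genes for lysosomal membrane proteins fell in 6 of 7 cases. Mcoln1, the lysosomal cation channel TRPML1 through which calcium leaves the organelle, had 1104, 1016 and 1056 normalized counts in the CAF_CM libraries, against 1394, 1406 and 1428 in the control libraries. This was the largest fall of the group at 1.33-fold (log2 fold change -0.41, SE 0.053, adjusted p = 0.000227). Cd63, a tetraspanin of late endosomes and lysosomes, had 4813, 4609 and 4881 normalized counts in the CAF_CM libraries, against 6056, 6054 and 5864 in the control libraries, also without overlap (log2 fold change -0.33, SE 0.0456, adjusted p = 0.000348). Cln3, mutated in a childhood lysosomal storage disease in human, had 862, 713 and 767 normalized counts in the CAF_CM libraries, against 936, 934 and 992 in the control libraries (log2 fold change -0.29, SE 0.0724, adjusted p = 0.00921). Its call was lost without control replicate 3 (adjusted p = 0.0511). Lamp1 and Lamp2 encode the glycoproteins that line the inner face of the membrane. Lamp1 had 7856, 6809 and 7391 normalized counts in the CAF_CM libraries, against 8602, 8802 and 9048 in the control libraries (log2 fold change -0.26, SE 0.0565, adjusted p = 0.00424), and its promoter held 4 separate TCACGTG matches, the most of any member. Lamp2 had 4661, 4359 and 4700.2 normalized counts in the CAF_CM libraries, against 5117, 5176 and 5245 in the control libraries, a smaller difference that did not overlap either (log2 fold change -0.18, SE 0.0472, adjusted p = 0.0125). The call of Lamp2 was lost without control replicate 2 or 3 (adjusted p = 0.0613 and 0.0655). Scarb2, the receptor that carries glucocerebrosidase to lysosomes, fell (-0.22, adjusted p = 0.00439). Npc1, the cholesterol exporter, overlapped between the groups (1013 ± 55.5 normalized counts in CAF_CM and 1045 ± 21.1 in control libraries, 95% interval of the log2 fold change -0.17 to 0.0801, adjusted p = 0.571). With transcript length and GC content corrected for, Npc1 fell (log2 fold change -0.18, adjusted p = 0.0093).

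**Figure D2:**
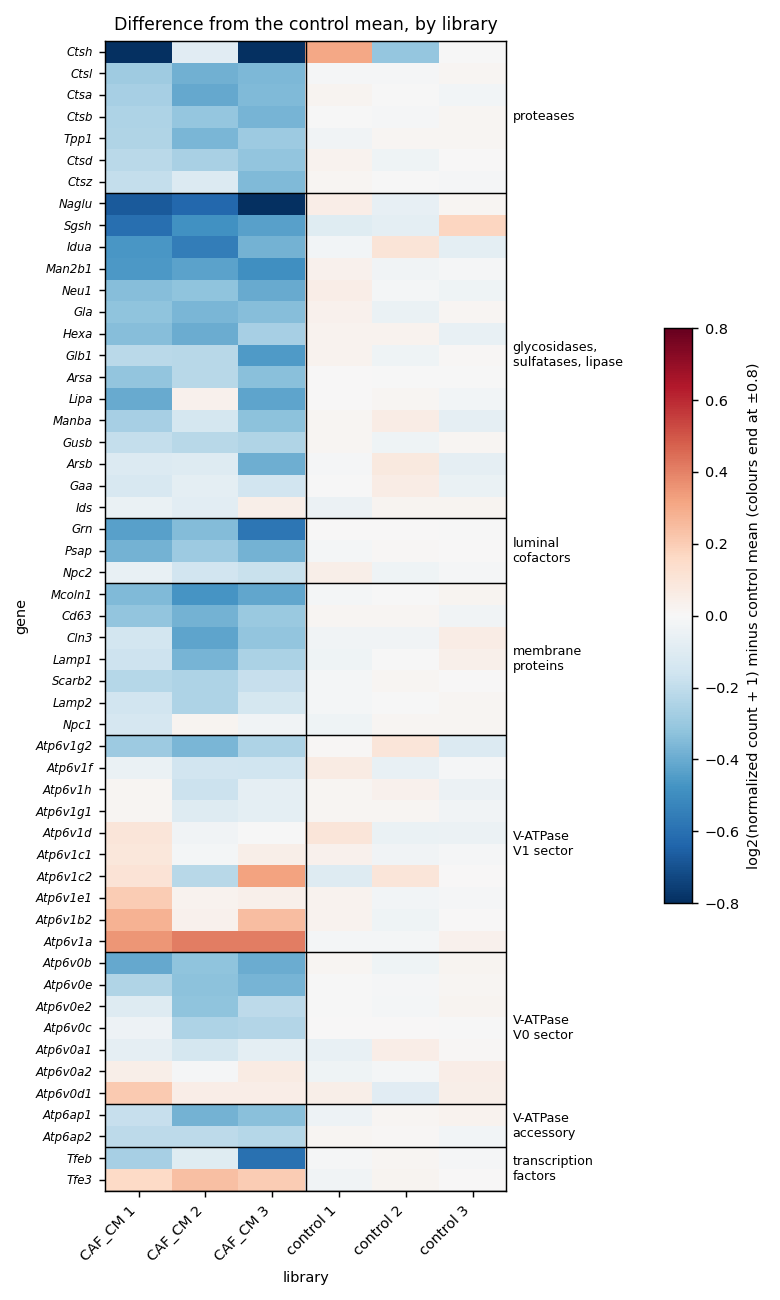
Each row is 1 of the 53 genes and each column 1 library, CAF_CM left and control right, and the colour gives log2(normalized count + 1) minus the control mean of the gene, with the colours ending at 0.8 in either direction. The 3 CAF_CM columns are blue over most enzyme and membrane rows, Lipa is near 0 in CAF_CM replicate 2, and the row of Atp6v1a is red in all 3.

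Of 19 V-ATPase subunit genes, 11 did not pass the test, 6 fell, all in V0 or among the accessory subunits, and 2 rose, both in V1. The falls made up 31.6% and the rises 10.5% of the 19, against 16.1% and 18.3% of all genes tested, so the share of rises was not above that over all genes. In V0, Atp6v0b encodes the proteolipid c'' of the proton-carrying ring and had 2955, 3128 and 2981 normalized counts in the CAF_CM libraries, against 3953, 3832 and 3971 in the control libraries. All CAF_CM libraries were below all controls, a 1.30-fold fall (log2 fold change -0.38, SE 0.0463, adjusted p = 0.000185). Atp6v0e, a small membrane subunit, had 1929, 1816 and 1763 normalized counts in the CAF_CM libraries, against 2269, 2262 and 2302 in the control libraries (log2 fold change -0.31, SE 0.0503, adjusted p = 0.000836). Atp6v0e2, its paralogue, had 2043, 1756 and 1905 normalized counts in the CAF_CM libraries, against 2194, 2173 and 2228 in the control libraries, with CAF_CM replicate 1 nearest to the controls (log2 fold change -0.21, SE 0.0586, adjusted p = 0.0162). The call of Atp6v0e2 was lost without control replicate 1, 2 or 3 (adjusted p = 0.0617, 0.0557 and 0.0699) and once transcript length and GC content were corrected for (0.0719). Atp6v0c, the main proteolipid of the ring and the V-ATPase gene with most counts, had 9873, 8562 and 8645 normalized counts in the CAF_CM libraries, against 10187, 10152 and 10108 in the control libraries (log2 fold change -0.17, SE 0.0579, adjusted p = 0.0387). Reads of Atp6v0c may be shared with its processed copy Atp6v0c.ps2 (2506 ± 236 normalized counts in CAF_CM and 2815 ± 66.8 in control libraries), so its value is uncertain. Its call was lost without any 1 library other than CAF_CM replicate 1, where adjusted p ran from 0.0816 to 0.124, and with that correction (0.134).

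The other 3 V0 genes did not pass the test. Atp6v0a1, a large subunit that forms the proton path, had a log2 fold change of -0.10 (95% interval -0.21 to 0.0123), and Atp6v0d1, which joins V0 to the stalk, had 0.11 (-0.0298 to 0.24). Atp6v0a2, another isoform of the large subunit, had 0.0338 (-0.0815 to 0.15). With the correction for length and GC content Atp6v0a1 and Atp6v0d1 passed, in opposite directions (-0.15 and 0.19, adjusted p = 0.0168 and 0.0112). A further isoform of the large subunit, a3, is encoded by Tcirg1, which lies outside the symbol rule. Tcirg1 had 1308, 1395 and 1186 normalized counts in the CAF_CM libraries, against 1889.8, 1927 and 1851 in the control libraries, a 1.46-fold fall without overlap (log2 fold change -0.55, SE 0.0622, adjusted p = 0.000119). Both accessory subunits fell. Atp6ap1, which assists assembly of the enzyme, had 3851, 3359 and 3462 normalized counts in the CAF_CM libraries, against 4254, 4416 and 4449.5 in the control libraries (log2 fold change -0.30, SE 0.0565, adjusted p = 0.00207). Atp6ap2, also known as the prorenin receptor, had 3941, 3944 and 3885 normalized counts in the CAF_CM libraries, against 4602, 4582 and 4491 in the control libraries (log2 fold change -0.22, SE 0.043, adjusted p = 0.00282). In both genes the groups were separate.

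In V1, Atp6v1a encodes the catalytic subunit A and had 5691, 5908 and 5912 normalized counts in the CAF_CM libraries, against 4395, 4400.1 and 4552 in the control libraries. It was the largest rise of the 53 genes, 1.31-fold, with the groups well apart (log2 fold change 0.39, SE 0.0446, adjusted p = 0.000119). Atp6v1b2 encodes subunit B, which alternates with A in the ATP-hydrolysing head, and had 3429.8, 2890.0 and 3349 normalized counts in the CAF_CM libraries, against 2881, 2762 and 2838 in the control libraries. CAF_CM replicate 2 lay just above the highest control library (log2 fold change 0.19, SE 0.0637, adjusted p = 0.0423). The rise of Atp6v1b2 passed the test in 12 of 18 alternatives and lost it with library totals as scaling (adjusted p = 0.111), without CAF_CM replicate 1 (0.0591) or 3 (0.139), and without control replicate 1 (0.0951), 2 (0.15) or 3 (0.11). The other 8 V1 genes did not pass the test. Among those of the stalks and the regulatory subunit, log2 fold changes were 0.0892 for Atp6v1e1 (95% interval -0.0298 to 0.21), -0.0542 for Atp6v1g1 (-0.16 to 0.0528), -0.0754 for Atp6v1h (-0.20 to 0.0493) and -0.12 for Atp6v1f (-0.24 to -0.00186). Atp6v1f passed it without CAF_CM replicate 1 (adjusted p = 0.0218), and Atp6v1e1 with the correction for length and GC content (0.14, adjusted p = 0.0295). The neuronal isoform gene Atp6v1g2 had the lowest log2 fold change of the sector (75.8 ± 3.17 normalized counts in CAF_CM and 93.7 ± 6.58 in control libraries, -0.30, adjusted p = 0.0857), and Atp6v1c2, an isoform of subunit C, had the fewest counts of the 53 genes (11.1 ± 2.24 normalized counts in CAF_CM and 10.4 ± 0.795 in control libraries, 95% interval -0.57 to 0.71). Atp6v1c1, the other isoform gene of subunit C, had 0.0389 (-0.0676 to 0.15), and Atp6v1d, of the central stalk, had 0.0215 (-0.11 to 0.15). Summed over each sector, normalized counts of V1 genes were 23740.2 to 25606 in CAF_CM and 22636 to 23256 in control libraries, and those of V0 genes were 20422 to 22329.9 in CAF_CM and 23728 to 24055 in control libraries. The V0 sums were lower in CAF_CM without overlap. The V1 sums were higher, but the difference lay in Atp6v1a and Atp6v1b2. The other 8 genes of V1 summed to 14941.8 to 16486 in CAF_CM and 15362 to 15980.2 in control libraries, which overlapped.

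The transcription factors of the set differed in sign. Tfe3, which like TFEB moves to the nucleus when lysosomal or nutrient stress lowers its phosphorylation, had 1349, 1428 and 1386 normalized counts in the CAF_CM libraries, against 1184, 1224 and 1211 in the control libraries, and rose without overlap (log2 fold change 0.20, SE 0.0507, adjusted p = 0.0102). Its call was lost without control replicate 1 (adjusted p = 0.0573) and with the correction for length and GC content (log2 fold change 0.10, adjusted p = 0.112). Tfeb had 244, 274 and 194 normalized counts in the CAF_CM libraries, against 292, 297 and 292 in the control libraries. All CAF_CM libraries were below the controls, but they differed among themselves, and Tfeb did not pass the test (log2 fold change -0.32, SE 0.12, adjusted p = 0.0512, 95% interval -0.57 to -0.0668). Tfeb passed in 7 of 18 alternatives, among them those without CAF_CM replicate 1 (adjusted p = 0.036) or 2 (0.00675). The rest of the 7 kept every library, such as library totals as scaling (0.0316). Over all alternatives adjusted p ran from 0.00675 to 0.169. Mitf, a relative of both that is not a member, was low in every library (30.5 ± 4.34 normalized counts in CAF_CM and 29.9 ± 4.12 in control libraries).

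**Figure D3:**
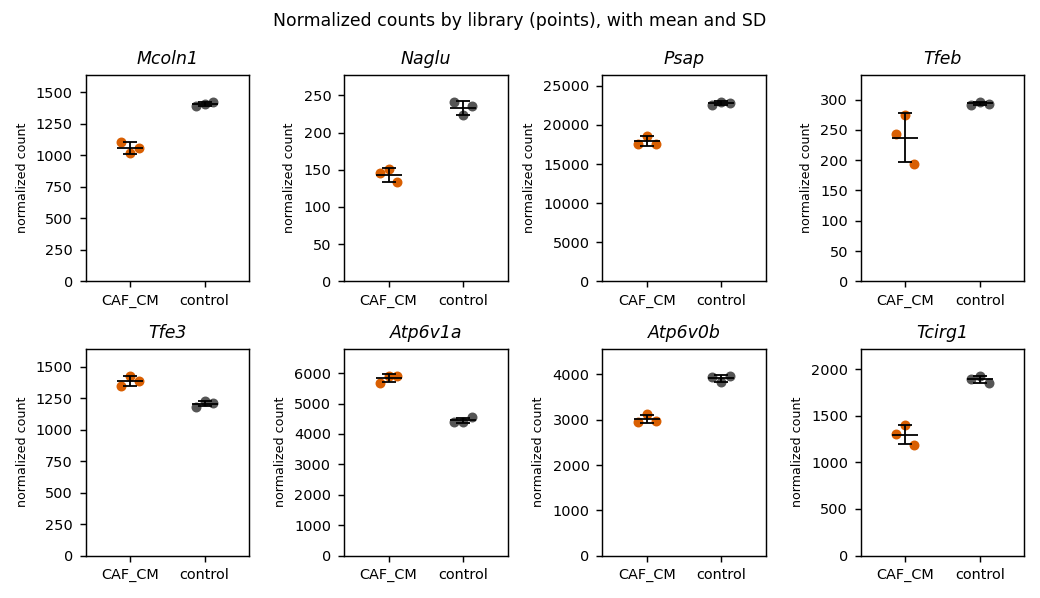
Normalized counts of 8 genes in each library (points), CAF_CM left of control, with a bar at the mean and whiskers of 1 SD (n = 3 per group), on linear axes that start at 0. Mcoln1, Naglu, Psap, Atp6v0b and Tcirg1 are lower in all CAF_CM libraries, Atp6v1a and Tfe3 are higher, and Tfeb spreads from 194 to 274 in CAF_CM.

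Other genes of the lysosome were described through lists that do not contain the members. Of 27 further lysosomal hydrolases tested, 21 fell (77.8%, against 16.1% of all genes) and none rose, with a median log2 fold change of -0.28. They included Ppt1, which removes palmitate from proteins (926 ± 69.3 normalized counts in CAF_CM and 1236 ± 9.26 in control libraries, log2 fold change -0.42, adjusted p = 0.000533) and the acid nuclease gene Dnase2a (-0.45). Of 25 further membrane proteins of lysosomes, 14 fell (56.0%) and none rose (median -0.23). Besides Tcirg1 they included Clcn7, a chloride and proton exchanger (1529 ± 46.0 normalized counts in CAF_CM and 1991 ± 7.46 in control libraries, -0.38, adjusted p = 0.000207), and Laptm4a (-0.38). Among 11 genes of mannose 6-phosphate sorting and enzyme maturation, 4 fell (36.4%) and 1 rose. Gnptg, a subunit of the enzyme that makes the sorting signal, fell (2311 ± 67.7 normalized counts in CAF_CM and 3043 ± 132 in control libraries, -0.40), as did Sumf1, which activates sulfatases (-0.31), while Gga2, an adaptor for the sorting receptors, rose (3716 ± 61.2 normalized counts in CAF_CM and 3082 ± 75.2 in control libraries, 0.27).

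Lists of genes that act at the lysosome without being part of its digestive content had medians nearer to 0. Among 11 genes of V-ATPase assembly and regulation, 3 rose (27.3%, against 18.3% of all genes) and 1 fell (median -0.00593). Groups overlapped for Dmxl1, 1 of the 3 rises, named after its values were seen (log2 fold change 0.26, adjusted p = 0.0434). Ncoa7, a V-ATPase binding protein, rose (588 ± 58.3 normalized counts in CAF_CM and 422 ± 47.3 in control libraries, 0.48, adjusted p = 0.00299), as did Wdr7, a subunit of rabconnectin-3 (0.30), and Oxr1, of the same domain family as Ncoa7, fell (-0.29). The call of Wdr7 was lost without CAF_CM replicate 3 (adjusted p = 0.0613) and without control replicate 1 or 2 (0.0605 and 0.0512). That of Oxr1 was lost without CAF_CM replicate 1 (0.0753) and without control replicate 1 or 3 (0.116 and 0.14), and by DESeq2 (0.0657). Of 18 genes of the mTORC1 platform on the lysosome, 2 rose (11.1%) and 1 fell (5.56%), shares below the 18.3% and 16.1% over all genes. The called genes included Fnip2, a partner of folliculin (766 ± 70.1 normalized counts in CAF_CM and 536 ± 26.0 in control libraries, 0.51, adjusted p = 0.000553). Tsc1, a brake on mTORC1, was the other rise (0.25, adjusted p = 0.0206) and Lamtor3, of the Ragulator complex, the fall (-0.22, adjusted p = 0.0265). Tsc1 lost its call with library totals (0.052), with the correction for length and GC content (0.117), without CAF_CM replicate 3 (0.083) and without control replicate 1 or 3 (0.0916 and 0.0808), and Lamtor3 without CAF_CM replicate 2 (0.0569) and without control replicate 1 or 3 (0.114 and 0.118).

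Of 20 genes of the tethering and lysosome positioning complexes HOPS, CORVET and BORC, 2 rose (10.0%) and 3 fell (15.0%), shares below the 18.3% and 16.1% over all genes. The rises, named after their values were seen, were those of Vps33a (0.19) and Vps8 (0.21). Both lost the call with library totals (adjusted p = 0.0826 and 0.054), without CAF_CM replicate 3 (0.102 and 0.0692) and without control replicate 1 (0.116 and 0.0685), 2 (0.0689 and 0.0682) or 3 (0.0908 and 0.0646), and Vps8 also with the correction for length and GC content (0.059). The 3 falls were those of Vps16, a core HOPS subunit (-0.23), Plekhm2, which links lysosomes to kinesin (-0.32), and Snapin (-0.35), the last of which lost its call without control replicate 1 (adjusted p = 0.0627). Of 32 autophagy genes, 8 rose (25%, against 18.3% of all genes) and 1 fell (median 0.0735). In 14 of the 32 every CAF_CM library lay above every control library, against 24.8% of all genes tested. Sqstm1, the autophagy receptor p62, had 8876, 7825 and 8012 normalized counts in the CAF_CM libraries, against 6777, 6832 and 6808 in the control libraries (log2 fold change 0.27, SE 0.0536, adjusted p = 0.00261). Gabarapl1, which coats autophagosomes, rose (1248 ± 51.1 normalized counts in CAF_CM and 1017 ± 57.6 in control libraries, 0.30), as did Wipi1, which acts at their formation (505 ± 36.6 normalized counts in CAF_CM and 403 ± 10.4 in control libraries, 0.32).

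**Figure D4:**
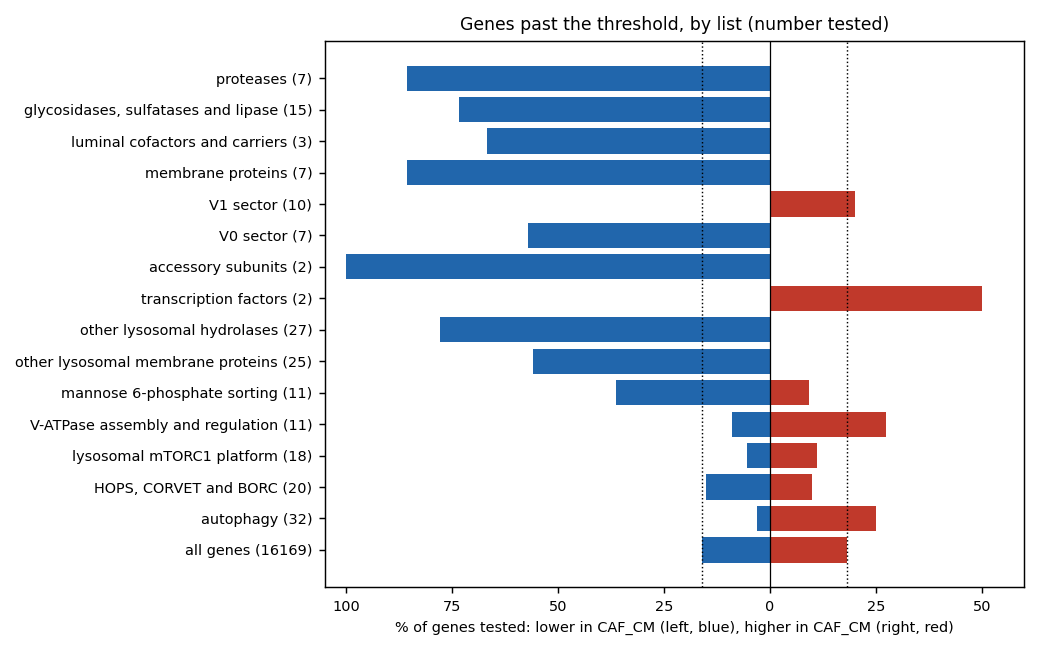
Share of the genes tested in each role or list that fell (blue, left of 0) or rose (red, right of 0) in CAF_CM libraries, with the number tested in brackets and dotted lines at the shares over all genes, 16.1% and 18.3%. Proteases, glycan and lipid enzymes, luminal cofactors, membrane proteins and both further lysosomal lists lie beyond the left dotted line with no red. So do the V0 sector and the accessory subunits. Bars that reach the right dotted line are those of the V1 sector, transcription factors (1 of 2 genes), V-ATPase assembly and regulation, autophagy and all genes. The V1 bar, at 20%, ends near the right dotted line.

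The genes with a TCACGTG match in the promoter fell in 12 of 15 cases and rose in 1, Atp6v1a. The 30 members whose promoter window lacked it fell in 18 cases and rose in 1. Outside the members, 708 tested genes had the match. Of these 16.7% fell and 21.6% rose, against 16.8% and 20.1% of the 9755 without it. The matches in members made up 24 separate sites, and 14 of the 15 genes had one that began within 150 bases of the start of transcription.

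**Figure D5:**
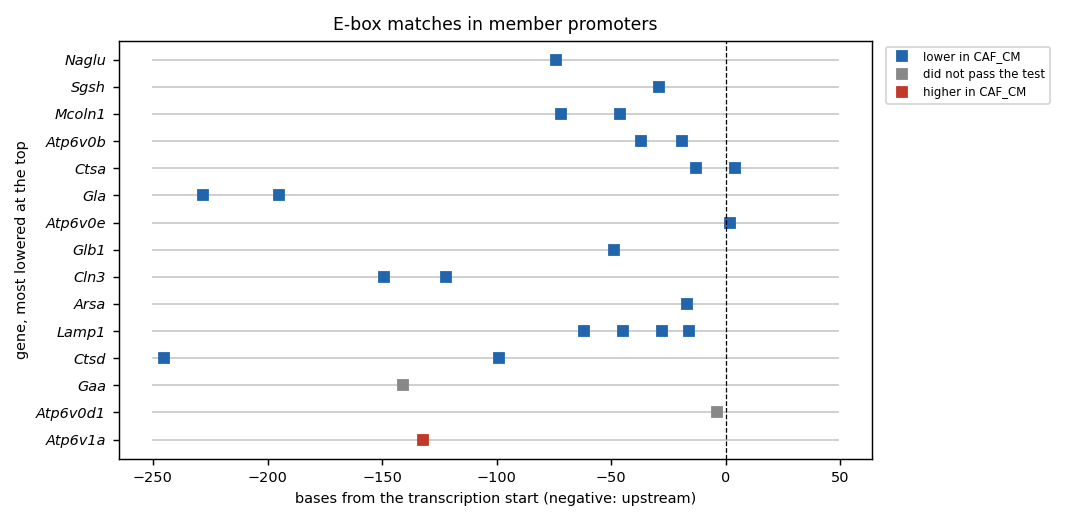
Positions of the TCACGTG matches, on either strand and with overlapping matches merged, in bases from the start of transcription for the 15 members that hold one, ordered by log2 fold change with the most lowered gene at the top. Squares are blue for genes that fell, grey for genes that did not pass the test and red for Atp6v1a, and most lie upstream of the start.

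Markers of other cell types were examined beside these results. Of 12 macrophage markers 6 had a row, and their summed normalized counts were 35.1 to 52.5 in CAF_CM and 56.8 to 71.4 in control libraries. Ptprc, the pan-leukocyte marker, had 1.03, 2.94 and 1.90 normalized counts in the CAF_CM libraries, against 3.85, 1.02 and 3.14 in the control libraries, so this marker was near 0 in both groups, although the summed values were lower in the CAF_CM libraries without overlap. C1qa made up most of the sum (30.3 ± 5.00 normalized counts in CAF_CM and 37.1 ± 5.55 in control libraries), and Lyz2 was at 0 in 1 CAF_CM library. The 9 fibroblast markers with a row summed to 4367 to 4823 in CAF_CM and 4575 to 4743 in control libraries, mostly Pdgfrb and Fbln1, and 2 rose and 1 fell of 8 tested. Acinar markers fell in 5 of 10 cases (sum 34370.5 to 40734 in CAF_CM and 65794 to 68323 in control libraries, mostly Ctrb1 and Cela1). The others did not pass the test, with log2 fold changes above 0 for Cpa1 (0.12), Ptf1a (0.15), Bhlha15 (0.14) and Prss2 (0.31) and below 0 for Pnlip (-0.16). Ductal markers rose in 3 of 7 cases. Over all genes tested, 16.1% fell and 18.3% rose. The part of either marker list in the lysosomal values was not tested. By the GENCODE M21 annotation, exons of 21 members overlap exons of another gene, and for 9 of them that gene had at least 10% of the member's mean normalized count. Apart from Ctsb these were Atp6v1c2, Atp6v1g2, Cln3, Ctsz, Glb1, Grn, Idua and Npc1. The overlapping gene rose beside Ctsb and Glb1 (Tmppe, 0.66, on the same strand), fell beside Atp6v1c2 (Pdia6, -0.21) and did not pass the test beside the other 6. The call of Fdft1 was lost without control replicate 1 or 2. Pathway genes named above share exon bases with other genes too. Snapin, Ppt1 and Wdr7 overlap opposite-strand genes with more counts than their own (Ilf2, Cap1 and Txnl1, means of 3711, 3724 and 2897 normalized counts). Dnase2a, Gnptg, Vps16, Ncoa7 and Sqstm1 overlap genes with fewer counts than their own. The part of such overlaps in the values was not tested.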

How the data were processed

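Total RNA of the 266.6 line (RNA integrity number 10 throughout) was sequenced after Illumina TruSeq RNA library preparation, as the labels' protocols state. Per the submitters' processing notes, the tools were FastQC and DESeq2 and the build was hg19, although the symbols are those of mouse. No aligner, counter or mouse build is given in the sources used here.

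The deposited signal is read counts divided by 1 factor per library by the authors. Divided by the worth of 1 read, 100% of the values were whole in every library (tolerance 0.001). The lowest row total is 10 reads. Of 20764 rows, 168 carry no symbol (0.153% to 0.261% of reads) and were left out.

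Because the values are normalized, limma 3.58.1 (R 4.3.3) was run on log2(value + 1) with a variance trend, over genes with at least 10 in at least 3 libraries. Members, lists and tests were chosen with earlier results of these data known. Values in every library are given for Tfeb, Tfe3, Lamp1, Lamp2, Ctsb and Ctsd, for the 4 largest called rises and falls at most of each role and the 2 of highest mean. Up to 3 called genes of each of 8 pathway lists are given by lowest adjusted p, and Mitf was the only gene of its list with a value. Other members are added with values, and 1 gene that the rule names is not reported here. Tldc1 was found as Meak7 by a RefSeq synonym. The test was tried on simulated counts. Transcript length and GC content were those of the longest GENCODE M21 transcript, found for 95.0% of the genes tested. Over the same genes, edgeR 4.0.16 on recovered reads called 2888 genes higher and 2682 lower, against 2953 and 2602 by limma. Alternatives also used DESeq2 1.42.0.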

Additional observations from a re-analysis of the deposited data

How the results depend on the processing

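In 18 alternatives, run 1 at a time, the median log2 fold change of the 53 members stayed below 0 and falls outnumbered rises. It was -0.309 with library totals, which moved the median of all genes by -0.0452, and -0.217 once transcript length and GC content were corrected for. Leaving out 1 library gave medians of -0.265 to -0.215 (the last without CAF_CM replicate 3), 26 to 35 falls and 1 to 3 rises. The cause of these shifts was not tested. With library totals all genes split into 2231 higher and 3179 lower, against 2953 and 2602, and 38 members fell and 2 rose. Leaving out control replicate 1 gave 1868 and 1659, control replicate 2 gave 1967 and 1715, and control replicate 3 gave 2087 and 1723. Of 31 falls, 25 passed the test in every alternative, as did 1 of 3 rises, Atp6v1a. DESeq2 and edgeR each gave 31 falls and 3 rises. Mitf, at a log2 fold change of 0.0294, was 0.115 without CAF_CM replicate 1, but -0.0146 with library totals, -0.0768 without CAF_CM replicate 2, -0.0861 without control replicate 3 and -0.0740 with the length and GC correction. Same-numbered libraries deviated together only weakly (correlations of 0.0291 to 0.0703). Such correlations cannot settle whether the numbers pair the libraries, and the labels do not say. With the replicate number as a block, 34 members fell and 3 rose, and the median was -0.263. The block ended no call among the members and added Arsb, Lipa and Tfeb to the falls. Ctsh and Atp6v1c2 had the fewest counts and the widest intervals of the members.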
